A study of Capra hircus with 6 samples.

Results

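Ubiquitin enzyme and deubiquitinase genes were examined as hosts of circular RNAs (circRNAs) in the longissimus dorsi, the long back muscle, of Haimen goats. An exonic circRNA is a closed RNA ring that forms when the end of an exon is spliced to the start of the same or an earlier exon. The reads that cross this back-splice count it. Entries classed as intronic circRNAs, 62 of those chosen here, were counted with the exonic ones. The host genes were chosen by symbol: every host listed with a name of the UBE2, UBR, HERC, RNF, TRIM, ZNRF, CUL, FBXL, FBXO, FBXW or USP families was taken, with 1 F-box gene left out by the choice. Entries whose host was given only as a gene number were added where they lay on the same strand within the span of a chosen gene. This gave 146 of the 6438 host genes and 638 of the 25500 circRNAs. Of these circRNAs, 548 carried the symbol and 90, in 47 genes, were added by position, all 90 with the same symbol in the RefSeq gene table. The members lay on 29 chromosomes.

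Muscle from kids at 1 day of age (3 libraries, kid) was compared with muscle from fetuses at 75 days of gestation (3 libraries, fetus). All animals were of the Haimen breed, no treatment is labelled, and total RNA was freed of ribosomal RNA and digested with RNase R, which removes linear RNA, before sequencing. The labels do not say that each library comes from a separate animal, so the p-values speak only of the spread between libraries of a stage, which may be technical. Expression of circRNAs during skeletal muscle development is the study's stated subject.

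Ubiquitin is passed from an activating enzyme (E1) to a conjugating enzyme (E2) and then, with a ligase (E3) that picks the substrate, to the target protein. Proteins so marked are often degraded by the proteasome, and deubiquitinases take the mark off again. Cullins are scaffolds of multi-subunit ligases, and F-box proteins are the exchangeable substrate receptors of the cullin-1 type. In skeletal muscle the system is best known for the ligases FBXO32 (atrogin-1) and TRIM63 (MuRF1), which are induced during muscle wasting. A circRNA level is neither the mRNA level nor the protein level of its host gene.

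Back-splice reads numbered 77111, 42695 and 73922 in kid libraries 1 to 3, against 36484, 33222 and 56467 in fetus libraries 1 to 3. Of all sequenced reads, 87.75%, 84.01% and 87.92% were kept at trimming in the kid libraries, against 70.73%, 69.1% and 86.99% in the fetus libraries, so fetus 1 and fetus 2 stood apart from the other libraries. Of 14 skeletal muscle markers, 13 had circRNA reads (ACTN3 was at 0), and their summed level was 20740 to 25098 CPM (counts scaled to the library total) in kid against 11760 to 12083 CPM in fetus. Of 9 muscle markers tested, 5 were higher in kid. Among these, CKM had 13, 12 and 17 reads in kid libraries 1 to 3, against 0 in each fetus library. CKM thus met the read filter given below through the kid libraries alone. Summed levels were 139 to 189 CPM in kid against 95.9 to 334 CPM in fetus for 8 endothelial markers (CDH5 and TIE1 at 0), and 264 to 477 CPM in kid against 511 to 973 CPM in fetus for 8 fibroblast and matrix markers (LUM at 0). Of the matrix markers, POSTN had 0 CPM in each kid library against 523, 167 and 128 CPM in fetus libraries 1 to 3 and was lower in kid (edgeR adjusted p = 0.000688). It met the read filter given below through the fetus libraries alone. Without POSTN the sums of the matrix markers overlapped, at 264 to 477 CPM in kid against 349 to 806 CPM in fetus. Smooth muscle, immune, erythroid, nerve and fat markers reached at most 125 CPM in any library, with MYH11, PTPRC, HBB, SOX10 and ADIPOQ at 0. The part of cell makeup in the results below was not tested, and in bulk tissue fewer cells of a type and less RNA per cell cannot be told apart.

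Reads from the 146 genes were unevenly spread. Together they held 9681 back-splice reads, 5960 in kid and 3721 in fetus, and the 9 genes with the most reads held 56.8% of them. At the other end, 72 genes had at most 10 reads and 22 had a single read. Reads were seen in both stages for 98 genes, in kid only for 25 and in fetus only for 23, and 49 genes were seen in all 6 libraries. The shape of their circRNAs was close to that of all host genes: 90.3% were exonic against 89.6%, the median exon number was 4 against 3, and the median spliced length was 462 against 448 bases. Reads from intronic circRNAs made up 5.05% of the members' reads against 7.76% over all host genes, and 33.2% of the members' circRNAs against 35.1% of all rested on 1 read. The median number of circRNAs per gene was 2 in both sets, and the most in any member was 27, in UBR3.

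The members took 3.17%, 2.83% and 3.12% of all back-splice reads in kid libraries 1 to 3, against 2.93%, 2.94% and 2.97% in fetus libraries 1 to 3. These shares overlapped between the stages. On the CPM scale, which also includes TMM (trimmed mean of M values) factors for each library, the summed level was 34006, 32589.5 and 33319.9 CPM in kid libraries 1 to 3, against 26632, 27161 and 26769.5 CPM in fetus libraries 1 to 3. It averaged 33305.0 ± 708 CPM in kid and 26854 ± 275 CPM in fetus (SD, n = 3 each), a log2 difference of 0.31. The sum is a description with no test, and its log2 difference was 0.045 without TMM factors and 0.18 without FBXL17.

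At least 5 reads in at least 3 libraries were asked for before a host gene was tested, which 48 of the 146 members passed and 98 did not. The untested members had 1 to 35 reads over the 6 libraries. With edgeR's quasi-likelihood test and Benjamini-Hochberg adjustment over all 1753 host genes tested, 9 members (18.75%) passed an adjusted p of 0.05, against 19.5% of all host genes tested. Of the 9, 7 were higher in kid (USP53, UBE2D1, USP13, FBXO31, UBR3, FBXL17 and USP25) and 2 were lower (UBE2Z and HERC4), and 39 did not pass. Among those called, USP53 met the read filter through the kid libraries alone. Over all host genes, 12.0% were higher and 7.53% lower, so the members' share of calls was near the background. CPM did not overlap between the stages in 18 of the 48 tested members (37.5%), against 37.1% of all host genes tested. The median log2 fold change, kid over fetus, was -0.11 over the tested members and 0.05 over all host genes tested. Without TMM factors those medians were -0.37 and -0.21, and the split of calls was 6 higher and 3 lower among members and 135 higher and 207 lower over all, against 210 higher and 132 lower with them. Without fetus 1 and fetus 2, which kept fewer reads at trimming, 2 members were higher (USP13 and UBE2D1) and 0 lower, and 71 of all host genes passed.

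**Figure D1:**
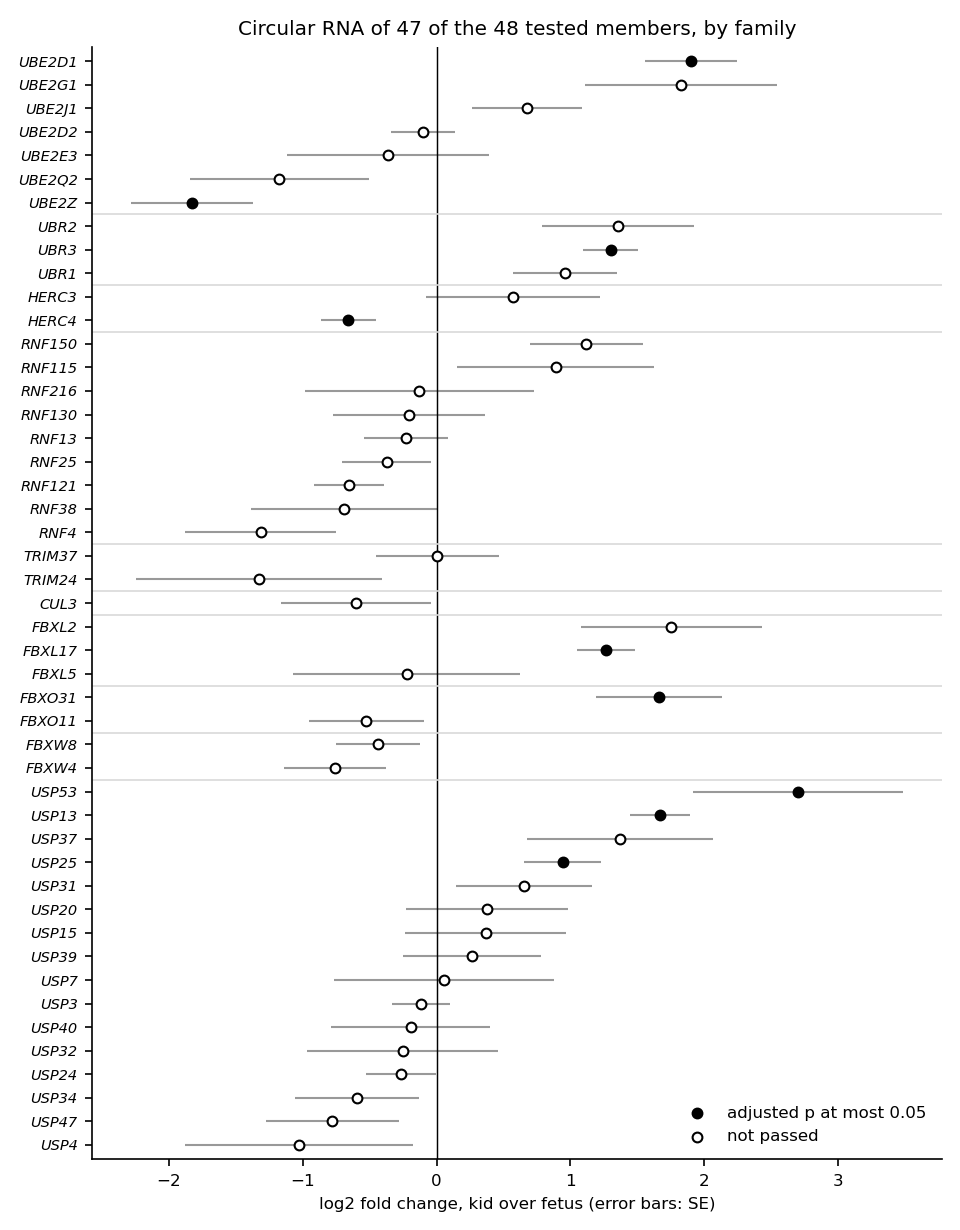
Log2 fold change, kid over fetus, of the summed circRNA level of 47 of the 48 tested members, ordered by family and within a family by value. Filled points passed an adjusted p of 0.05, open points did not, and bars are SE. The 9 filled points, 7 above 0 and 2 below, lie in the UBE2, UBR, HERC, FBXL, FBXO and USP families. None lies among the 9 RNF, 2 TRIM, 1 CUL and 2 FBXW genes tested, where 19.5% of all host genes tested passed.

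**Figure D2:**
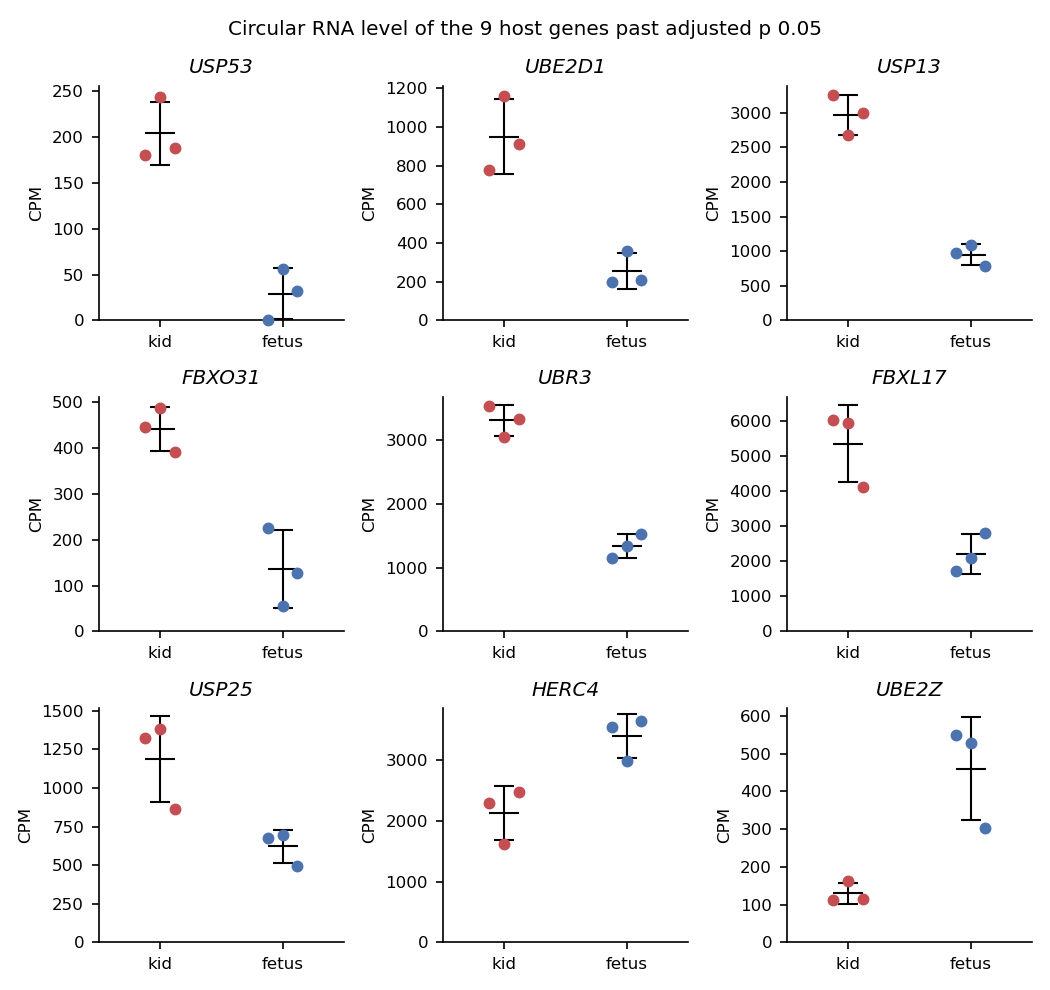
circRNA level in CPM, each axis from 0, of the 9 host genes past an adjusted p of 0.05, in the 3 kid libraries (left in each panel) and the 3 fetus libraries (right). Points are libraries, and horizontal marks with bars are the mean ± SD. In each panel the 3 kid points and the 3 fetus points do not overlap. USP53 met the read filter through the kid libraries alone.

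Among the E2 conjugating enzymes, 18 genes had reads and 7 were tested, of which UBE2D1 was higher in kid and UBE2Z lower. UBE2D1, an E2 that works with many ligases, had 778, 1162 and 909.9 CPM in kid libraries 1 to 3, against 199, 361 and 208 CPM in fetus libraries 1 to 3. Every kid library stood above every fetus library, and kid 2 was the highest. The log2 fold change was 1.90 ± 0.34 (SE, edgeR adjusted p = 0.000462), a 3.73-fold higher level in kid, and it passed whichever of the 6 libraries was left out. UBE2Z, an E2 that in human cells is charged by the E1 enzyme UBA6, had 111, 162 and 116 CPM in kid libraries 1 to 3, against 548, 528 and 304 CPM in fetus libraries 1 to 3. The kid libraries lay close together and below all fetus libraries, of which fetus 3 was the lowest. Kid over fetus, the log2 fold change was -1.83 ± 0.46 (SE, edgeR adjusted p = 0.00761), a 3.55-fold lower level in kid, also past the threshold with any 1 library left out. UBE2D1 still passed without both fetus 1 and fetus 2 (adjusted p = 0.0346), and UBE2Z did not.

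Each of these E2 genes had nearly all its reads in 1 circRNA. For UBE2D1 it joined 4 exons of 280 bases (chr26:51117820-51121687, plus strand) and held 99% of the gene's reads. Its close relative UBE2D2 also made a circRNA of 4 exons and 280 bases, besides its leading circRNA of 5 exons and 374 bases, which held 71.3% of its reads. UBE2D2 as a whole had 1028, 1324 and 1169.9 CPM in kid libraries 1 to 3, against 1196, 1390.0 and 1183 CPM in fetus libraries 1 to 3. These values overlapped, and its log2 fold change was -0.10 ± 0.24 (SE, edgeR adjusted p = 0.814). Its leading circRNA had 664, 639.9 and 900.5 CPM in kid libraries 1 to 3, against 962, 1129.5 and 911 CPM in fetus libraries 1 to 3. All kid libraries lay below all fetus libraries there, but the log2 fold change of -0.44 ± 0.25 (SE, edgeR adjusted p = 0.314) did not pass. The UBE2D2 circRNA of 280 bases had 381, 566 and 257 CPM in kid libraries 1 to 3, against 286, 248 and 337 CPM in fetus libraries 1 to 3, which overlapped. The log2 ratio of the UBE2D1 to the UBE2D2 circRNA of 280 bases was 1.05, 0.90 and 1.81 in kid libraries 1 to 3, against -0.87, 0.53 and -0.62 in fetus libraries 1 to 3. All kid ratios were above all fetus ratios, with a mean difference of 1.58. The two-sided exact permutation p was 0.1, the smallest that 3 against 3 libraries can give. This pair was chosen after the values were seen, it was the only 1 compared, and similar gene copies can share reads.

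**Figure D3:**
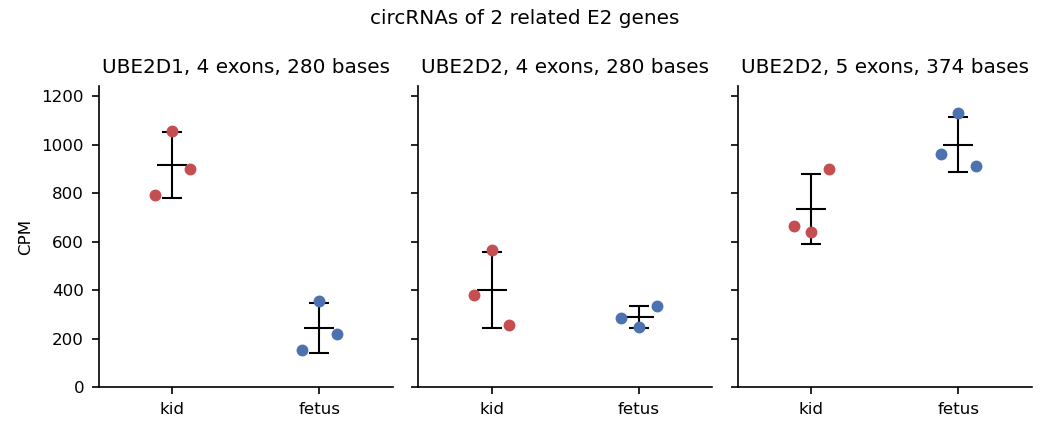
CPM of the tested circRNAs of the E2 genes UBE2D1 and UBE2D2, with the kid libraries left and the fetus libraries right in each panel (points, libraries; marks and bars, mean ± SD). The UBE2D1 circRNA lies at 791 to 1058 CPM in kid, above every fetus point, while the 2 stages overlap for the UBE2D2 circRNA of 280 bases.

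Among the UBR-box ligases, which include the readers of destabilizing protein ends (N-degrons), 6 genes had reads and 4 were tested. UBR3 was higher in kid, with 3544, 3054 and 3336 CPM in kid libraries 1 to 3, against 1146, 1334 and 1534 CPM in fetus libraries 1 to 3. All kid libraries lay above all fetus libraries, and the values within a stage were close together. This gave a log2 fold change of 1.30 ± 0.21 (SE, edgeR adjusted p = 0.000135), 2.46-fold higher in kid, and it passed with any 1 library left out. UBR1 and UBR2, the classical N-degron ligases, did not pass, although their kid and fetus values did not overlap. UBR2 had 208, 216 and 376 CPM in kid libraries 1 to 3, against 149.5, 111 and 63.9 CPM in fetus libraries 1 to 3. Its log2 fold change was 1.36 ± 0.57 (SE, edgeR adjusted p = 0.0972). It was 2.0 without fetus 1 and fetus 2, 0.98 without fetus 3 and 1.00 without kid 3. UBR1, named after its values were seen, had 472, 622 and 636 CPM in kid libraries 1 to 3, against 299, 445 and 176 CPM in fetus libraries 1 to 3, and a log2 fold change of 0.96 ± 0.39 (SE, edgeR adjusted p = 0.0875). UBR4, a very large ligase of the N-degron pathway taken among those known from striated muscle, had 14 reads in kid against 10 in fetus and was not tested.

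The HERC genes, ligases with a HECT domain and regions like the RCC1 protein, had 5 members with reads. HERC4 had the most reads of them and was the second member lower in kid, with 2293, 1621 and 2469.7 CPM in kid libraries 1 to 3, against 3538, 2975 and 3644 CPM in fetus libraries 1 to 3. Every kid library lay below every fetus library, and kid 2 was the lowest. The log2 fold change was -0.66 ± 0.21 (SE, edgeR adjusted p = 0.0292), 1.58-fold lower in kid. The call was lost without fetus 1, without fetus 3 and without kid 2 (adjusted p 0.0218 to 0.101 over the 6 fits), when libraries were scaled to valid reads (adjusted p = 0.309), and with no filter on low reads (adjusted p = 0.0895). HERC3 had 139, 162 and 144 CPM in kid libraries 1 to 3, against 99.7, 167 and 48 CPM in fetus libraries 1 to 3, with overlap between the stages and a log2 fold change of 0.57 ± 0.65 (SE, edgeR adjusted p = 0.598), or 1.53 without fetus 1 and fetus 2 and 0.10 without fetus 3.

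The RNF genes, RING-type ligases, were 30 with reads, and none of the 9 tested passed with edgeR or with DESeq2. Over all host genes tested 19.5% passed with edgeR. Of the 9, 3 had an unadjusted p under 0.05 (RNF121, RNF150 and RNF4, the last 2 named after their values were seen). RNF121, a membrane protein of the secretory pathway, had 750.4, 973 and 708 CPM in kid libraries 1 to 3, against 1196, 1501 and 1103 CPM in fetus libraries 1 to 3. All kid libraries lay below all fetus libraries, but the log2 fold change of -0.65 ± 0.26 (SE, edgeR adjusted p = 0.0826) did not pass, although it did without TMM factors (adjusted p = 0.0152). RNF13, a ligase of endosomal membranes, had 917, 1081 and 519.9 CPM in kid libraries 1 to 3, against 1071, 612 and 1167 CPM in fetus libraries 1 to 3. Its stages overlapped and both spread widely, with a log2 fold change of -0.23 ± 0.31 (SE, edgeR adjusted p = 0.668). RNF115 (BCA2), taken among the ligases known from striated muscle, had 111, 270.2 and 173 CPM in kid libraries 1 to 3, against 0, 195 and 95.9 CPM in fetus libraries 1 to 3, with overlap and a log2 fold change of 0.89 ± 0.74 (SE, edgeR adjusted p = 0.441). This was 0.29 without fetus 1 and 1.58 without fetus 2. RNF150 had 709, 513 and 332 CPM in kid libraries 1 to 3, against 324, 250.2 and 159.8 CPM in fetus libraries 1 to 3. It did not overlap between the stages and missed the threshold at 1.12 ± 0.42 (SE, edgeR adjusted p = 0.0668). RNF157 had 1, 2 and 1 reads in kid libraries 1 to 3, against 0, 0 and 0 in fetus libraries 1 to 3. It was thus seen in every kid library and in no fetus library, too few reads for a fold.

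The TRIM genes, ligases built on a tripartite motif, were 18 with reads and 195 reads in all. Of the 2 tested, TRIM37, a ligase of peroxisomes and centrosomes, had 222, 135 and 289 CPM in kid libraries 1 to 3, against 249, 250.2 and 176 CPM in fetus libraries 1 to 3. Its stages overlapped, and its log2 fold change was 0.01 ± 0.46 (SE, edgeR adjusted p = 0.995), with a sign that turned under several settings. TRIM24, a co-regulator of transcription, had 0, 54 and 86.7 CPM in kid libraries 1 to 3, against 125, 139 and 95.9 CPM in fetus libraries 1 to 3. No kid library reached a fetus library, but the log2 fold change of -1.33 ± 0.92 (SE, edgeR adjusted p = 0.353) did not pass, and it was -0.65 without kid 1 and -2.46 without kid 3.

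Among the ligases known from striated muscle, UBR2, RNF115 and CUL3 were tested, while UBR4 and those given here were not. TRIM32, TRIM55, FBXO30 and FBXO40 were looked for with them and had no circRNA read. For scale, the median was 11 reads per gene over the members and 7 over all host genes. TRIM63 (MuRF1) had 8, 2 and 9 reads in kid libraries 1 to 3, against 1, 0 and 1 in fetus libraries 1 to 3. Most of its reads were in kid 1 and kid 3, and the ratio of pooled CPM, kid over fetus, was 7.39 (95% counting interval 1.78 to 65.5). FBXO32 (atrogin-1) had 0, 3 and 7 reads in kid libraries 1 to 3, against 0, 0 and 1 in fetus libraries 1 to 3. No read was seen in kid 1, and the ratio of pooled CPM was 7.78 (95% counting interval 1.11 to 338). It was 13.1 without kid 1 and 3.82 without kid 3 (interval 0.307 to 200.4), and at least 1.42 without fetus 3, which held the fetus read. TRIM54 (MuRF3), which binds microtubules, had 3 reads in kid and 0 in fetus, and TRIM72 (MG53), a protein of membrane repair, had 0 in kid and 2 in fetus. FBXO21, an F-box gene studied in muscle wasting in mice, had 1 read in kid and 0 in fetus. None of these genes met the filter, and their intervals and floors hold for counting error alone, because reads copied by PCR do not stand for separate molecules. ZNRF3, a membrane ligase that removes WNT receptors, was the only ZNRF gene among the members and had 1 read in kid and 2 in fetus.

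The cullins were 6 genes with 89 reads in all. Their summed level was 195, 189 and 202 CPM in kid libraries 1 to 3, against 424, 306 and 416 CPM in fetus libraries 1 to 3. All kid libraries lay below all fetus libraries, as a description of a sum with no test. With CUL1, which stands outside the choice, the sums were 2099, 1459 and 1689.8 CPM in kid libraries 1 to 3, against 1569.5, 2196 and 2189.5 CPM in fetus libraries 1 to 3, and overlapped. CUL3, the scaffold for ligases with BTB-domain adaptors and the only cullin tested among the members, had 153, 108 and 116 CPM in kid libraries 1 to 3, against 249, 139 and 192 CPM in fetus libraries 1 to 3. Its stages overlapped, and its log2 fold change was -0.60 ± 0.56 (SE, edgeR adjusted p = 0.501). CUL7, which pairs with the F-box protein FBXW8, had 1, 2 and 1 reads in kid libraries 1 to 3, against 5, 2 and 10 in fetus libraries 1 to 3. It was not tested, and its ratio of pooled CPM, kid over fetus, was 0.183 (95% counting interval 0.0448 to 0.561). With 1 library left out this ratio ranged from 0.116 without kid 2 to 0.244 without fetus 3 (interval 0.0524 to 0.96). Fetus 3 held 10 of the 17 fetus reads.

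The F-box genes held the member with the most reads. FBXL17, a receptor that in human cells removes wrongly paired BTB-domain proteins, had 6017, 5945 and 4102 CPM in kid libraries 1 to 3, against 1719, 2085 and 2813 CPM in fetus libraries 1 to 3. All kid libraries lay above all fetus libraries, with kid 3 the lowest of kid and fetus 3 the highest of fetus. Kid over fetus, the log2 fold change was 1.26 ± 0.22 (SE, edgeR adjusted p = 0.000286), 2.4-fold higher in kid, and it passed with any 1 library left out. FBXL2, an F-box protein anchored in membranes by a lipid, had 181, 324 and 318 CPM in kid libraries 1 to 3, against 149.5, 0 and 79.9 CPM in fetus libraries 1 to 3. Its stages did not overlap, but the log2 fold change of 1.75 ± 0.67 (SE, edgeR adjusted p = 0.0721) did not pass. It was 2.37 without fetus 1 and 2.51 with host names kept as listed. It was smaller, at 1.21, without fetus 2, the library at 0 CPM, and 1.49 without TMM factors.

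FBXO31, which in human cells targets cyclin D1, had 445, 486 and 390.0 CPM in kid libraries 1 to 3, against 224, 55.6 and 128 CPM in fetus libraries 1 to 3. Kid libraries lay close together above all fetus libraries, which spread widely. This gave a log2 fold change of 1.66 ± 0.47 (SE, edgeR adjusted p = 0.0166), 3.16-fold higher in kid. There were 77 reads in kid against 19 in fetus. The call was lost without fetus 2, without fetus 3 and without kid 2 (adjusted p 0.0204 to 0.104 over the 6 fits), with DESeq2 (adjusted p = 0.0617), with valid reads as library sizes (adjusted p = 0.0599) and with host names kept as listed (adjusted p = 0.0512). FBXO11, a receptor that in human cells targets BCL6, had 250.1, 162 and 390.0 CPM in kid libraries 1 to 3, against 249, 417 and 511 CPM in fetus libraries 1 to 3, with overlap and a log2 fold change of -0.52 ± 0.43 (SE, edgeR adjusted p = 0.437). FBXW8, the partner of CUL7, had 667, 513 and 1098 CPM in kid libraries 1 to 3, against 1296, 1195 and 719 CPM in fetus libraries 1 to 3. It overlapped between the stages, with a log2 fold change of -0.44 ± 0.31 (SE, edgeR adjusted p = 0.367). FBXW4 had 361, 432 and 636 CPM in kid libraries 1 to 3, against 1271, 334 and 815 CPM in fetus libraries 1 to 3. It overlapped as well, since fetus 2 lay below all kid libraries, with a log2 fold change of -0.76 ± 0.38 (SE, edgeR adjusted p = 0.169). The log2 fold change was -1.17 without fetus 2 (edgeR adjusted p = 0.0389) and -0.38 without fetus 1 (edgeR adjusted p = 0.617).

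A pair of F-box genes was seen in every kid library and in no fetus library. FBXO47 had 9, 5 and 4 reads in kid libraries 1 to 3, against 0, 0 and 0 in fetus libraries 1 to 3, at least 4.67-fold higher in kid when the fetus group is set to a floor of 3 reads over the group (2.56 without fetus 3). FBXO22, which in human cells targets KDM4 histone demethylases, had 1, 2 and 9 reads in kid libraries 1 to 3, against 0, 0 and 0 in fetus libraries 1 to 3, at least 3.11-fold higher in kid. Of these 12 reads, 9 came from kid 3, and the bound was 4.79 without kid 1 and 1.71 without fetus 3; without kid 3 only 3 reads were left and no fold could be given. With RNF157 these were 3 of 146 members (2.06%), against 1.46% of all host genes. The reverse, reads in every fetus library and none in kid, was seen in 0 members and in 0.761% of all host genes. The kid libraries pooled held more reads than the fetus libraries pooled, and the part of depth in these counts was not tested.

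The USP genes, the largest family of deubiquitinases, were 37 with reads, 16 tested and 3 higher in kid. The symbol rule also took USP6NL, which is not a deubiquitinase. USP13, which in mammalian cells acts on Beclin 1 in autophagy, had 3252, 2675 and 2989.7 CPM in kid libraries 1 to 3, against 972, 1084 and 783 CPM in fetus libraries 1 to 3. Kid libraries lay well above all fetus libraries, and both stages were tight. The log2 fold change was 1.67 ± 0.22 (SE, edgeR adjusted p = 2.16e-05), 3.18-fold higher in kid and the smallest adjusted p of the members. It passed with any 1 library left out and also without both fetus 1 and fetus 2 (adjusted p = 0.0152).

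USP53, a protein of cell junctions in mice, had 181, 243 and 188 CPM in kid libraries 1 to 3, against 0, 55.6 and 32 CPM in fetus libraries 1 to 3. All kid libraries lay above all fetus libraries, and fetus 1 had no read. Kid over fetus, the log2 fold change was 2.70 ± 0.78 (SE, edgeR adjusted p = 0.0191), on 35 reads in kid against 4 in fetus. USP53 thus met the read filter through the kid libraries alone, where it was high. The call was lost without fetus 1 and without fetus 3 (adjusted p 0.0354 to 0.0823 over the 3 fits that kept it) and with DESeq2 (adjusted p = 0.0677), and with a kid library left out the gene no longer met the filter. USP25, which in human has a longer muscle isoform, had 1320.2, 1378 and 867 CPM in kid libraries 1 to 3, against 673, 695 and 495 CPM in fetus libraries 1 to 3. The stages did not overlap, with kid 3 the lowest of kid. This gave a log2 fold change of 0.94 ± 0.29 (SE, edgeR adjusted p = 0.0252), 1.92-fold higher in kid. It passed in 1 of the 6 fits with a library left out, the 1 without kid 3 (adjusted p 0.0124 to 0.134), and was lost with DESeq2 (0.0894), valid reads (0.141), no TMM factors (0.0973) and host names as listed (0.0541), all adjusted p.

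The second most abundant USP gene, USP3, a deubiquitinase of histone H2A, had 1639.8, 1946 and 2065 CPM in kid libraries 1 to 3, against 1868, 2419 and 1854 CPM in fetus libraries 1 to 3. Its stages overlapped and its log2 fold change was -0.12 ± 0.21 (SE, edgeR adjusted p = 0.763). USP2, a deubiquitinase of the circadian clock in mice, named after its values were seen, had 24, 7 and 2 reads in kid libraries 1 to 3, against 0, 1 and 0 in fetus libraries 1 to 3. Its reads were mostly in kid 1, and the ratio of pooled CPM, kid over fetus, was 25.7 (95% counting interval 4.3 to 1045). It was 11.8 without kid 1, 39.5 without kid 3 and 14.1 without fetus 3, and without fetus 2, which held the fetus read, it was at least 6.34. It was not tested, since too few libraries had 5 reads.

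At the level of single circRNAs, the same filter left 63 circRNAs of 35 members. Of these, 7 (11.1%) passed an adjusted p of 0.05 over all 1904 circRNAs tested, against 11.9% of all. There were 5 higher in kid and 2 lower, against 6.93% higher and 4.94% lower over all, and without TMM factors the split was 5 higher and 4 lower. CPM did not overlap between the stages in 22 of the 63 (34.9%), against 36.2% of all circRNAs tested. Coordinates are those of the deposited tables, for which no source used here names the genome build. CPM of circRNAs was scaled by factors of its own and differs slightly from that of host genes. Of the 7 called circRNAs, 3 passed with any 1 library left out (those of USP13, UBR3 and UBE2D1), and none passed without both fetus 1 and fetus 2.

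The USP13 circRNA joined 2 exons of 311 bases (chr1:87033531-87036229, minus strand) and had 2585, 1748 and 2559 CPM in kid libraries 1 to 3, against 702, 771 and 675 CPM in fetus libraries 1 to 3. Every kid library was above every fetus library, with a log2 fold change of 1.68 ± 0.23 (SE, edgeR adjusted p = 0.00213). The UBR3 circRNA joined 4 exons of 493 bases (chr2:109818344-109827943, plus strand) and had 2317, 1526 and 2101 CPM in kid libraries 1 to 3, against 519.9, 716 and 860.2 CPM in fetus libraries 1 to 3. Here too no library overlapped, with a log2 fold change of 1.50 ± 0.26 (SE, edgeR adjusted p = 0.00738). The UBE2D1 circRNA of 280 bases had 791, 1058 and 900.5 CPM in kid libraries 1 to 3, against 156, 358 and 219 CPM in fetus libraries 1 to 3. It did not overlap either, with a log2 fold change of 1.91 ± 0.34 (SE, edgeR adjusted p = 0.00848).

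FBXL17 had a pair of called circRNAs that share their start position. The leading 1 joined 3 exons of 513 bases (chr7:3207819-3236265, plus strand) and had 3616, 3594 and 2373 CPM in kid libraries 1 to 3, against 754, 1239.7 and 1788 CPM in fetus libraries 1 to 3. The other joined 5 exons of 752 bases (chr7:3207819-3368071, plus strand) and had 1243, 911 and 600.4 CPM in kid libraries 1 to 3, against 156, 276 and 320.5 CPM in fetus libraries 1 to 3. Both were higher in every kid library than in any fetus library, with log2 fold changes of 1.33 ± 0.31 (SE, edgeR adjusted p = 0.0222) for the shorter and 1.84 ± 0.38 (SE, edgeR adjusted p = 0.0151) for the longer. Each call was lost without fetus 1, without fetus 2 or without kid 1, the shorter also without kid 2 and with valid reads as library sizes (adjusted p = 0.0641). With a library left out the adjusted p was 0.0239 to 0.117 for the shorter and 0.0118 to 0.0693 for the longer.

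Both circRNAs lower in kid lost their call in most fits with a library left out. The UBE2Z circRNA joined 3 exons of 316 bases (chr19:37245420-37248845, minus strand), and held all of the gene's reads. It had 113, 148 and 114 CPM in kid libraries 1 to 3, against 572, 523 and 320.5 CPM in fetus libraries 1 to 3. Every kid library was below every fetus library, with a log2 fold change of -1.90 ± 0.41 (SE, edgeR adjusted p = 0.0179). It was lost without fetus 1, fetus 2, kid 1 or kid 3 (adjusted p 0.024 to 0.0708) and with no filter on low reads (adjusted p = 0.149). HERC4 made a leading circRNA of 5 exons and 682 bases (chr28:21105586-21124466, plus strand) and a second 1 that shares its start and holds 6 exons of 843 bases (chr28:21105586-21138064, plus strand). The second had 297, 197 and 400.2 CPM in kid libraries 1 to 3, against 728, 661 and 742 CPM in fetus libraries 1 to 3, lower in every kid library than in any fetus library, with a log2 fold change of -1.22 ± 0.32 (SE, edgeR adjusted p = 0.0382). It passed in 1 of 6 fits with a library left out, the 1 without kid 3 (adjusted p 0.044 to 0.113), and was lost with DESeq2 (0.0521), valid reads (0.202) and no filter (0.444), all adjusted p. The leading circRNA had 1596, 1279.9 and 1644 CPM in kid libraries 1 to 3, against 2547, 1873 and 2749 CPM in fetus libraries 1 to 3, and its log2 fold change of -0.66 ± 0.21 (SE, edgeR adjusted p = 0.0774) did not pass.

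**Figure D4:**
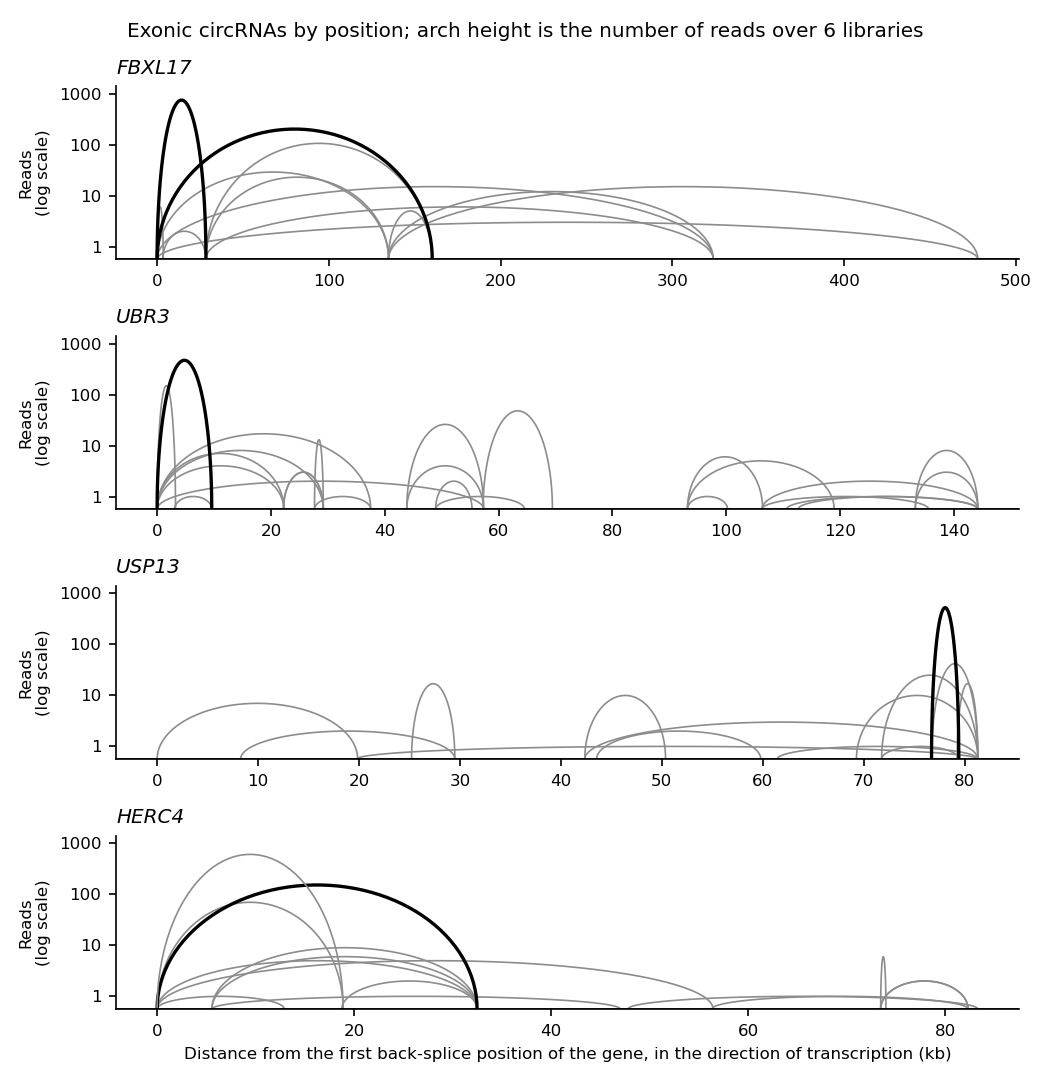
Exonic circRNAs of FBXL17, UBR3, USP13 and HERC4 as arches between their back-splice ends, by distance in kb from the first back-splice position of the gene in the direction of transcription. Arch height is the number of reads over the 6 libraries (log scale), and black arches passed an adjusted p of 0.05. The tallest arch of FBXL17 and the black arch beside it begin at the same place, as do the tallest arch of HERC4 and its black arch.

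Many exonic reads of the members used an end of the gene's leading circRNA. The leading circRNA's own reads are counted in the shares below, which are thus high where it holds most reads. In 42 members with at least 30 exonic reads and more than 1 exonic circRNA, the median share of a gene's exonic reads that used the leading circRNA's acceptor (its upstream end, 1 base allowed) was 77.6%, against 75.3% in 1425 host genes. For the donor, the downstream end, it was 64.1% against 71.3%. In FBXL17 85.6% of exonic reads used that acceptor and 64% that donor, and in UBR3 83.5% and 59.9%. HERC4 had 88% and 77.8%, and USP13 85.6% and 79.4%. With the leading circRNA itself counted, that acceptor was used by 6 of 13 exonic circRNAs in FBXL17 and 7 of 26 in UBR3. It was used by 4 of 15 in HERC4 and 2 of 14 in USP13. RNF13 was different, with 18.6% at the acceptor and 61.5% at the donor. Its reads were spread over many circRNAs, the leading 1 holding 16.8%.

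The leading circRNA held all reads in UBE2Z, 89.7% in USP53, 83.3% in FBXO31 and 79.2% in USP13. It held 69.8% in HERC4, 59.6% in UBR3, 59.5% in FBXL17 and 49.5% in USP25. Over members with at least 30 reads (47 genes) the median was 59.5%, against 62.4% over 1620 host genes. The FBXO31 circRNA joined 2 exons of 243 bases (chr18:14329941-14330755, minus strand), the USP53 circRNA 3 exons of 403 bases (chr6:6470008-6472562, minus strand), and the USP25 circRNA 2 exons of 223 bases (chr1:19903414-19907621, minus strand).

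**Figure D5:**
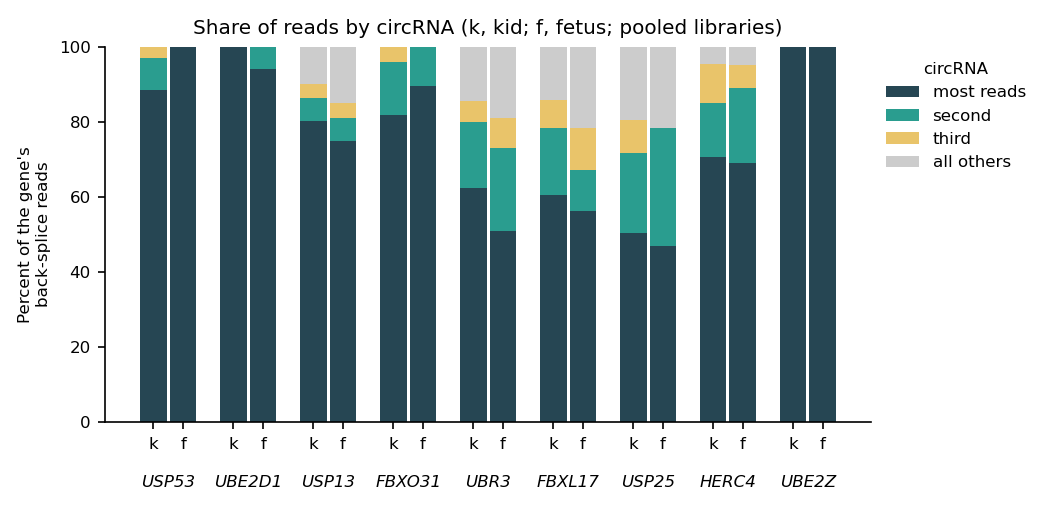
Share of each called host gene's back-splice reads, in percent, held by its circRNA with the most reads, by the second, by the third and by all others, in kid (k, left bar) and fetus (f, right bar), with the 3 libraries of a stage pooled. UBE2Z and UBE2D1 consist almost wholly of 1 circRNA in both stages, and USP25 is the most divided.

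Whether the circRNAs of a gene changed unequally was tested in the 16 members with at least 2 tested circRNAs. None passed with edgeR's diffSpliceDGE and Benjamini-Hochberg adjustment, against 5.82% of 361 host genes, and 1 had an unadjusted p under 0.05. This was USP3 (edgeR adjusted p = 0.298). Its circRNA of 2 exons and 193 bases had 1384, 1674 and 1844 CPM in kid libraries 1 to 3, against 1664, 1928 and 1417 CPM in fetus libraries 1 to 3, with overlap and a log2 fold change of -0.03 ± 0.21 (SE, edgeR adjusted p = 0.953). Its circRNA of 7 exons and 670 bases had 254, 98.5 and 129 CPM in kid libraries 1 to 3, against 208, 386 and 539.7 CPM in fetus libraries 1 to 3, also with overlap, and a log2 fold change of -1.21 ± 0.51 (SE, edgeR adjusted p = 0.167). In FBXL17 and HERC4, whose pairs of circRNAs share a start, the adjusted p for unequal change was 0.535 and 0.714.

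Other genes of the ubiquitin and SUMO systems were taken as 6 lists of 256 genes, of which 163 had reads and 52 were tested. Of these 8 were higher in kid and 1 lower, and 43 did not pass (17.3% called, against 19.5% of all host genes). Neither E1 gene tested passed, nor did any of 4 other deubiquitinases. Of 17 other ligases, UBE3A, the HECT ligase of Angelman syndrome, was higher in kid, at 1.76 ± 0.15 (log2, SE, edgeR adjusted p = 5.3e-08). TRIP12, also a HECT ligase, was lower, at -0.93 ± 0.30 (edgeR adjusted p = 0.0313). Of 17 cullin adaptors and regulators, 3 were higher: DCAF6, an adaptor of cullin 4, KLHL24, an adaptor of cullin 3, and COPS8, a subunit of the complex that strips NEDD8 from cullins. COPS8 had 5, 5 and 13 reads in kid libraries 1 to 3, against 0 in each fetus library. It thus met the read filter through the kid libraries alone, with none to spare. In log2, DCAF6 was at 0.82 ± 0.26 and KLHL24 at 1.13 ± 0.29 (SE, edgeR adjusted p = 0.0291 and 0.00894). Among 7 genes of the proteasome and its VCP partner, PSMC1 (37 reads in kid, 1 in fetus) and UBXN4 were higher. PSMC1 also met the filter through the kid libraries alone. Among 5 SUMO genes the ligase PIAS2 and the protease SENP6 were higher. UBXN4 was at 1.78 ± 0.62, PIAS2 at 1.46 ± 0.35 and SENP6 at 1.25 ± 0.33 (log2, SE, edgeR adjusted p = 0.0472, 0.00594 and 0.0116). How the calls on these lists hold under other settings or with a library left out is not given here.

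Some genes of the same families stood outside the choice because the tables gave their host only as a number. Of 33 such entries, 27 carried a member's symbol but lay outside its span, and the others came from 5 genes that were not members. ZNRF1, a ligase of membranes, had 28, 49 and 55 reads in kid libraries 1 to 3, against 0, 0 and 0 in fetus libraries 1 to 3, all intronic. Thus it met the read filter through the kid libraries alone. It was seen in every kid library and in no fetus library, at least 34.2-fold higher in kid against the floor of 3 reads over the group (18.8 without fetus 3; edgeR adjusted p = 8.82e-06). CUL1, the scaffold of the F-box ligases, had 1904, 1270.1 and 1488 CPM in kid libraries 1 to 3, against 1146, 1890.4 and 1774 CPM in fetus libraries 1 to 3, also intronic. Its stages overlapped, with a log2 fold change of -0.04 ± 0.25 (edgeR adjusted p = 0.943). FBXO4, UBE2V2 and ZNRF2 had 4, 4 and 2 reads, all in kid.

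In the authors' deposited table, whose fold changes run fetus over kid, 28 of the 638 member circRNAs (4.39%) were marked significant, against 3.26% of all 25500. Of the 28 in the authors' deposited table, 21 had a negative value (higher in kid) and 7 a positive one (lower in kid). The same split over all circRNAs marked there was not counted, so it is not known to be particular to the members. The authors' deposited table marked circRNAs with a q-value of up to 0.6, and 4 of the 28 had one of at most 0.05: those of USP13, UBE2D1 and UBR3 and the 5-exon circRNA of FBXL17. In the authors' deposited table as a whole, 198 of 831 marked circRNAs had a q-value of at most 0.05.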

How the data were processed

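Back-splice reads were counted in 3 kid and 3 fetus libraries, grouped by the sample titles. Per the labels' protocols, RNA was treated with RNase R and libraries were made with dUTP strand marking, amplified by PCR and read as pairs of 150 bases. Tools named per the submitters' processing notes are TopHat, cutadapt and FastQC. Which circRNA caller, genome build and annotation were used is not given in these sources. Per the file headers, the authors' quality table has read counts and percent values per library. Per the file headers, their circRNA tables have counts of back-splice reads and a normalized signal, SRPBM, which was not tested here. A further deposited table compares the stages by a log2 ratio, fetus over kid, with a p-value and q-value per circRNA. Sequences were written as the chromosome that the RefSeq gene table gives for their genes.

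Each library had between 34123876 and 52035202 valid reads, and in the library of lowest depth 3 reads of a host gene equal 83.4 CPM. Reads were summed per host gene, with number-named hosts joined by the RefSeq gene table (all 4563 matched) and, for the members, by position; number-named entries with a member's symbol outside its span were kept apart. The test on counts was that of edgeR 4.0.16 in R 4.3.3 (robust quasi-likelihood, TMM factors, Benjamini-Hochberg adjustment over all features, at least 5 reads in at least 3 libraries), for host genes, for circRNAs and, with diffSpliceDGE, for unequal change within a gene. The SE was obtained as the size of the log2 fold change over the root of the F statistic. The steps were tested on simulated data. The coefficient of variation between libraries of a stage, as edgeR estimates it in common, was 0.275 for host genes and 0.420 for circRNAs. Ratios of pooled CPM have exact 95% intervals, and a group without reads was set to 3 reads over the group. The permutation test used Python 3.11.15 with scipy 1.17.1.

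Alternatives were DESeq2 1.42.0, other library scaling, other read filters, other joining of names, exonic circRNAs only, addition of the 95 member entries that lie 1 base apart, a replicate block, and libraries left out. Leaving libraries out for genes with few reads, and changing the genes in the cullin and matrix sums, were chosen after seeing the data. The members, the lists of genes and the naming rule were chosen with earlier results of these data known. Named were the members and circRNAs past an adjusted p of 0.05, the 2 members of each family with the most reads, ligases known from striated muscle, members with reads in all libraries of 1 stage and none in the other, and the passing genes of the 6 lists. Other genes are marked where they appear. A member chosen by this rule is not reported here.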

Additional observations from a re-analysis of the deposited data

How the results depend on the processing

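The 9 host gene calls kept their direction under every setting in which the gene was tested, and USP13, UBE2D1, UBR3, FBXL17 and UBE2Z also passed in each of the 6 fits with a library left out. Of host genes higher in kid (7), there were 4 with DESeq2, 4 with host names as listed, 2 without fetus 1 and fetus 2, and 4 to 7 with 1 library left out. Of those lower in kid (2), there was 1 with no read filter, 1 with valid reads as library sizes, 0 without fetus 1 and fetus 2, and 1 to 3 with 1 library left out. Of circRNAs higher in kid (5), there were 0 without fetus 1 and fetus 2 and 3 to 6 with 1 library left out. Of those lower (2), there were 4 under a filter of 10 reads, 4 without TMM factors, 1 with DESeq2, 1 with valid reads, 0 with no filter, 0 without fetus 1 and fetus 2, and 0 to 1 with 1 library left out. The log2 difference of the summed level (0.31) was 0.045 without TMM factors and 0.18 without FBXL17. The cause of these changes was not tested. In the fits without fetus 1 and fetus 2 the lone fetus library is assumed to vary like the kid libraries. The replicate numbers did not pair the libraries: same-numbered libraries deviated from their stage means with r = 0.012, 0.035 and -0.039. With the replicate number as a block, 7 host genes were higher and 2 lower, and 3 circRNAs were higher and 0 lower. A few genes without a call (FBXW8, RNF13 and TRIM37) changed sign. FBXW8 was 0.060 (log2) without fetus 1 and fetus 2, and RNF13 ranged from -0.51 to 0.023 with 1 library left out, above 0 without kid 3. TRIM37 was -0.073 with DESeq2, -0.048 under the stricter filter, -0.36 with exonic circRNAs only or with names as listed, -0.027 with the replicate block, -0.25 without TMM factors, and -0.26 to 0.20 with 1 library left out, below 0 without fetus 3 (-0.22) and without kid 3. Over all host genes, 342 passed, against 230 with DESeq2, 200 with valid reads, 71 without fetus 1 and fetus 2, and 189 to 249 with 1 library left out. Over all circRNAs, 226 passed, against 137 with valid reads, 89 with the replicate block, 8 without fetus 1 and fetus 2, and 85 to 135 with 1 library left out. No member passed for unequal change in any alternative run.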
